A study of Mus musculus with 12 samples.

Results

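Mir106b, Mir93 and Mir25 are microRNA (miRNA) genes that lie together inside Mcm7, and Mir92b is a separate miRNA gene that shares its seed with Mir25. The 5 features (Mir106b, Mir93, Mir25, their host gene Mcm7, and Mir92b) were taken by name from a small RNA table of 32101 annotated features, and all 5 passed the filter on low values that left 683 features for testing. The study asked how mouse embryonic stem cells (ESCs) restrain transposable elements once DNA methylation is lost. Small RNAs of 20 to 24 nt were sequenced from 12 libraries of 3 genotypes. WT had 6 libraries in 3 pairs named A and B, Dnmt1 KO (Dnmt1 -/-, lacking the maintenance DNA methyltransferase) had 2 libraries in 1 pair, and Dicer/Dnmt1 KO (Dicer/Dnmt1 -/-, lacking also the RNase that cuts miRNA precursors) had 4 libraries in 2 pairs. Nothing in the labels says whether A and B were separate cultures, so p-values measure only the spread between these libraries, which may be technical.

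All 12 libraries are labelled as ESCs of the background strain E14. In the study's methods, the floxed Dnmt1 line is C57BL/6, deletion was induced with tamoxifen, and lines without Dicer, both conditional and constitutive, were derived from the floxed line by CRISPR targeting. The labels do not give the day of collection after deletion or say which of those lines the Dicer/Dnmt1 KO libraries came from. A difference between the lines, or in the day of collection, therefore cannot be told apart from the genotype in any comparison of the groups. One WT pair, titled E14 2 with no genotype in its title, stood apart: miRNAs took 65.8% and 45.3% of its table counts, against 29.5% to 34.0% in the other 4 WT libraries. Where leaving it out changes a call or moves a level, the value without it is given too.

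miRNAs of this kind are cut from a hairpin in 2 steps, first in the nucleus by Drosha with Dgcr8 and then in the cytoplasm by Dicer. The mature strand is loaded into an Argonaute protein and pairs with messenger RNAs mainly through its seed, the bases from position 2 to position 8. The Mir106b-25 cluster is a paralogue of the Mir17-92 cluster. Members of these clusters are abundant in ESCs and other dividing cells and are known to target inhibitors of the cell cycle and pro-apoptotic messages such as Bcl2l11. Mcm7 encodes a subunit of the MCM helicase, which unwinds DNA at replication origins.

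The sequences are shown because they define 2 seed groups among the 4 miRNAs. The mature strands below are those of RefSeq (GRCm38.p6), written 5′ to 3′ with the seed in capitals. Mir106b and Mir93 share the seed of the Mir17 family.
miR-106b-5p: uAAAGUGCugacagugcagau
miR-93-5p: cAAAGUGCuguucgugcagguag
miR-17-5p: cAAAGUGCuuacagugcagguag
miR-20a-5p: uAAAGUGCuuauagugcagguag
miR-20b-5p: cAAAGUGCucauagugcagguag
miR-106a-5p: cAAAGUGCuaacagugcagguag

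Mir25 and Mir92b carry the other seed, which they share with the miRNAs of the Mir92 family. Mir92-1 and Mir92-2 give the same mature strand, miR-92a-3p.
miR-25-3p: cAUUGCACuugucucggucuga
miR-92b-3p: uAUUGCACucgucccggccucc
miR-92a-3p: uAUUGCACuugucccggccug
miR-363-3p: aAUUGCACgguauccaucugua
miR-32-5p: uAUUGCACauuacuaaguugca
miR-367-3p: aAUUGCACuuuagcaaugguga

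Outside the seed the members differed. Over the 21 bases of miR-106b-5p, 16 were identical in miR-93-5p. miR-25-3p and miR-92b-3p were identical at 16 of 22 positions. Over its 21 bases, miR-92a-3p differed from miR-92b-3p at 2 positions and from miR-25-3p at 3. Each of the 4 members' mature strands had 1 exact match in the genome build of the files (NCBIM37), inside its own annotated hairpin, whereas miR-92a-3p matched 2 places, in Mir92-1 and Mir92-2. Reads of the last 2 genes with only that sequence cannot be assigned to one of them, and how the study placed such reads is not given in the sources used here.

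Reads were counted over whole hairpins, so the table does not separate the 2 arms. The hairpins of the 4 members are shown, with both annotated arms in capitals, because these are the intervals that were counted; all 4 RefSeq hairpins matched the table's intervals exactly in NCBIM37.
Mir106b: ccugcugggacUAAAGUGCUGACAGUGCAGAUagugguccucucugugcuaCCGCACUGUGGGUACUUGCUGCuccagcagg
Mir93: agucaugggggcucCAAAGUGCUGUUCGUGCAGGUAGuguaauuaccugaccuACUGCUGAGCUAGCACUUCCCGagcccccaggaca
Mir25: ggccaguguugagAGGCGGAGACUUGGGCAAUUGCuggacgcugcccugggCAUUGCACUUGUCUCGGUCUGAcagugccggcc
Mir92b: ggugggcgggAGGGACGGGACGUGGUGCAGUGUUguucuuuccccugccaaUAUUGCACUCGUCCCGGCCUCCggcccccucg

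In NCBIM37, Mcm7 (ENSMUSG00000029730.10) lies at chr5:138605811-138613650 on the minus strand. Mir106b (ENSMUSG00000065514.1, chr5:138606965-138607046), Mir93 (ENSMUSG00000065527.1, chr5:138606751-138606838) and Mir25 (ENSMUSG00000065394.1, chr5:138606549-138606632) follow each other on the same strand within 498 bases, separated by 118 and 126 bases. All 3 are in intron 13 of the Mcm7 transcript with 15 exons. Of 10 annotated Mcm7 transcripts, 1 has an exon that overlaps Mir25 and 1 has an exon that overlaps Mir93. Mir92b (ENSMUSG00000076255.2, chr3:89031038-89031120, minus strand) overlaps no other annotated feature. Cops6 and Ap4m1, on the opposite strand, overlap the ends of Mcm7, and held 8 and 4 reads over all libraries; whether the counting used strand is not given in the sources used here. The 11 features within 20 kb of a member, Cops6 and Ap4m1 among them, held at most 3 reads in any library and 37 reads in all. None of them could be tested.

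Values are given as RPM, a library's reads of a feature scaled to a fixed library size, from whole reads recovered from the deposited log2 RPM. Libraries held 8710 to 245184 reads, so 1 read was worth 4.08 to 115 RPM, and the 3 reads that a count of 0 allows were worth 12.2 to 344 RPM. Of all table counts, miRNAs took 51.4% and 53.4% in Dnmt1 KO and between 6.55% and 12.7% in Dicer/Dnmt1 KO libraries. Reads of the deleted genes were too few to check the genotypes, with 0 to 3 reads for Dicer1 and 0 to 18 for Dnmt1 per library. Dnmt1 reads over the whole gene were not lower in Dnmt1 KO, with 17 reads (97.0 RPM) against 62 in WT (81.3 RPM) and 14 in Dicer/Dnmt1 KO (56.6 RPM), summed over libraries. Of 12 ESC markers, all had a read. Their summed level ranged from 28002 to 88827 RPM among the WT libraries, was 55238 and 98688 RPM with Dnmt1 deleted, and fell between 1261 and 3756 RPM with Dicer deleted too, almost all of it from Mir290 to Mir295, which are themselves miRNAs; Pou5f1, Nanog and Sox2 had at most 11 reads in a library. Of 11 fibroblast markers 8 had a read (Lum, Thy1 and Mir199a-1 were at 0), and their summed level lay at 979 to 5390 RPM for WT, at 7462 and 9014 RPM for Dnmt1 KO and at 5627 to 17469 RPM for Dicer/Dnmt1 KO, most of it from Mir143 and Mir10b. Mir143 was called higher in Dnmt1 KO against WT (3.63, limma adjusted p = 0.00506) and in Dicer/Dnmt1 KO against WT (2.95, limma adjusted p = 0.000900), and Mir10b in neither. The part of this list in the results below was not tested. In such bulk samples, fewer cells of a type and less RNA per cell cannot be told apart.

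**Figure D1:**
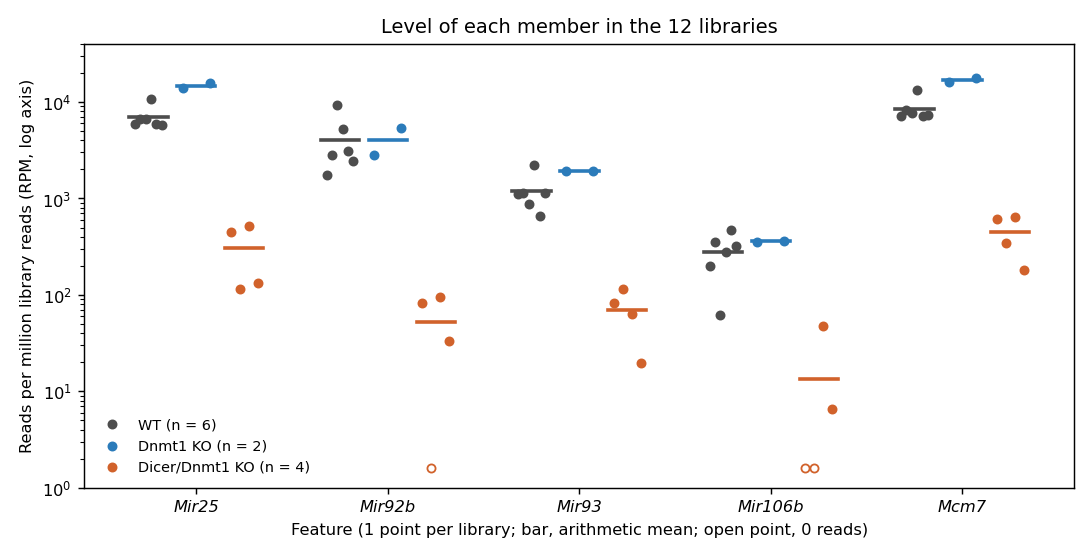
Level of each member in every library, in RPM on a log axis, with WT in grey, Dnmt1 KO in blue and Dicer/Dnmt1 KO in orange; each point is 1 library, bars are arithmetic means, and open points at the bottom are libraries with 0 reads. For all 5 features every Dicer/Dnmt1 KO library lay below every WT and Dnmt1 KO library. For Mir25 and Mcm7 both Dnmt1 KO libraries lay above all 6 WT libraries. These RPM values carry no further scaling between libraries, and Mcm7 repeats the reads of the miRNAs inside it. How many of all tested features separate in this way was not counted.

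Mir25, the last hairpin of the cluster, was the most abundant member in WT. Its level ran from 5830 RPM through a median of 6339 RPM to 10699 RPM in the WT libraries, 6970 ± 1869 RPM (SD, n = 6). The highest value was that of library 2B of the E14 2 pair, and the other 5 WT libraries lay between 5830 and 6723 RPM. In Dnmt1 KO the values were 13934 and 15594 RPM, 14764 ± 1174 RPM (SD, n = 2). In Dicer/Dnmt1 KO they were 449 RPM in 1A (11 reads), 115 RPM in 1B (1 read), 520 RPM in 2A (33 reads) and 133 RPM in 2B (20 reads), 304.2 ± 210.5 RPM (SD, n = 4). The 3 groups did not overlap in RPM, a separation that was not counted over all tested features.

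Mir93, the middle hairpin, whose mature strand the study used as a PCR check of Dicer activity, ran from 651 RPM through a median of 1134 RPM to 2240 RPM in WT, 1196 ± 548 RPM (SD, n = 6). It was at 1936 and 1942 RPM in Dnmt1 KO, which lay inside the WT range because library 2B of the E14 2 pair was higher. The 4 Dicer/Dnmt1 KO libraries held 2, 1, 4 and 3 reads (81.7, 115, 63.1 and 19.9 RPM; mean 69.9 ± 39.6 RPM, SD), all below the lowest WT library.

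Mir106b, the first hairpin of the cluster in the direction of transcription, was the least abundant. It ran from 62.0 RPM (1 read, library 2A of the E14 2 pair) through a median of 299 RPM to 471 RPM in WT, 280.4 ± 139.4 RPM (SD, n = 6). In Dnmt1 KO it was at 355 and 362 RPM (24 and 39 reads), within the WT range. In Dicer/Dnmt1 KO it had 0 reads in 1A and 1B, 3 reads in 2A (47.3 RPM) and 1 read in 2B (6.64 RPM). All 4 lay below the lowest WT library. The counts of 0 in 1A and 1B allow up to 122 and 344 RPM, and the second of these limits is above 4 of the 6 WT values.

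Mir92b lies on another chromosome. Its WT level ran from 1737 RPM through a median of 2955 RPM to 9231 RPM, 4086 ± 2777 RPM (SD, n = 6). The 2 highest WT values, 9231 and 5200 RPM, were both libraries of the E14 2 pair, and without that pair the level was 2522 ± 592 RPM (SD, n = 4). The Dnmt1 KO libraries, at 2822 and 5344 RPM, differed from each other by more than the SD of those 4 WT libraries. In Dicer/Dnmt1 KO there were 2, 0, 6 and 5 reads (81.7, 0, 94.6 and 33.2 RPM), far below the lowest WT library.

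The order of the levels in WT was Mir25, Mir92b, Mir93 and Mir106b. Mir93 exceeded Mir106b in 6 of 6 libraries, on average 4.36-fold (geometric mean of the within-library ratios, with 0.5 reads added to each count), and Mir92b exceeded Mir93 in 6 of 6, on average 3.11-fold. For both, the two-sided exact sign-flip permutation test gave p = 0.0312, the smallest that 6 libraries allow, and 0.0469 after adjustment over 3 neighbours. The neighbours follow the order of the means in these same libraries. The test counts the 6 libraries as separate, and 3 pairs would be too few for it to pass. Mir25 exceeded Mir92b in 5 of 6 libraries, 1.95-fold on average, which did not pass (exact permutation p = 0.0625); the exception was library 2A of the E14 2 pair, with 149 reads of Mir92b and 108 of Mir25. Without that pair Mir25 exceeded Mir92b in 4 of 4 libraries, 2.47-fold on average, Mir92b exceeded Mir93 2.48-fold and Mir93 exceeded Mir106b 3.07-fold (exact permutation p = 0.125 each, the smallest that 4 libraries allow). Per kilobase of annotated length the mean WT levels were 82980 for Mir25, 49231 for Mir92b, 13594 for Mir93, 3420 for Mir106b and 1080 RPM per kb for the whole of Mcm7.

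Reads counted for Mcm7 were almost entirely those of its 3 miRNAs. A read in a hairpin is counted both for the miRNA and for the host gene around it, and 9604 of the 9627 Mcm7 reads over all 12 libraries (99.8%) fell in Mir106b, Mir93 or Mir25. Reads elsewhere in the gene numbered 15 of 6516 in WT, 1 of 3025 in Dnmt1 KO and 7 of 86 in Dicer/Dnmt1 KO. The WT libraries had 0 to 5 of them each, and the 4 Dicer/Dnmt1 KO libraries had 2, 1, 1 and 3. The levels and changes of Mcm7 given here are therefore those of the cluster's miRNAs and carry almost no information on its messenger RNA, which is in any case not captured as such at 20 to 24 nt.

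**Figure D2:**
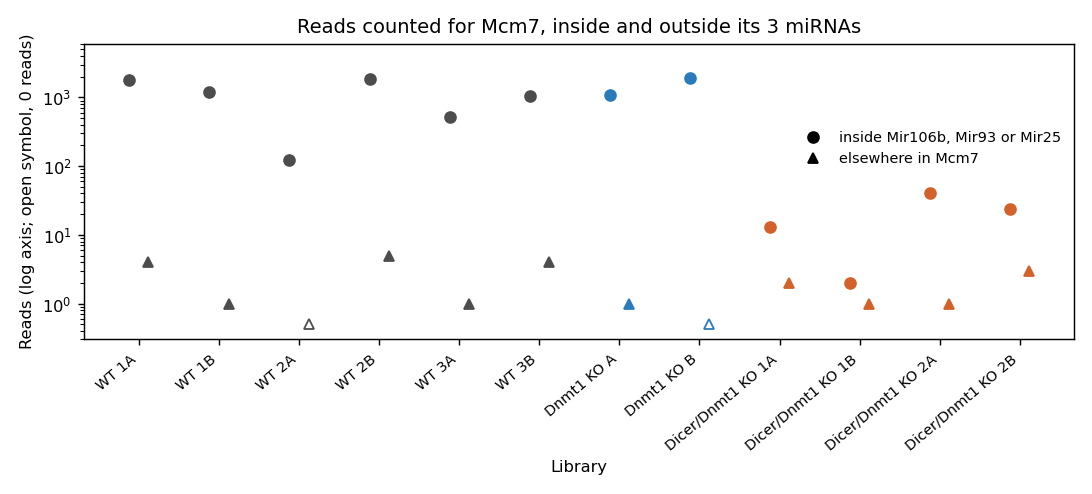
Reads counted for Mcm7 in each library, split into reads inside its 3 miRNAs (circles) and elsewhere in the gene (triangles), on a log axis; colours mark the genotype and open triangles stand for 0 reads. Reads inside the miRNAs ranged from 123 to 1926 in WT and Dnmt1 KO and from 2 to 40 in Dicer/Dnmt1 KO, while reads elsewhere stayed between 0 and 5 in all 12 libraries.

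The Mcm7 reads outside its miRNAs came to 16.8 ± 13.2 RPM for WT (SD, n = 6). They came to 7.39 ± 10.4 RPM for the 2 Dnmt1 KO libraries and to 58.0 ± 48.4 RPM for the 4 Dicer/Dnmt1 KO libraries. None of the 3 comparisons passed the exact permutation test: p = 0.114 for Dicer/Dnmt1 KO against WT, 0.5 for Dnmt1 KO against WT and 0.133 for Dicer/Dnmt1 KO against Dnmt1 KO (adjusted 0.2, 0.5 and 0.2; 2 libraries against 6 can reach no lower than 0.0714, and 4 against 2 no lower than 0.133). With 0 to 5 reads a library, a change in these reads was not detectable at this depth. The other MCM genes gave the same picture of a scarcely sampled class: all 8 (Mcm2 to Mcm6, Mcm8, Mcm9 and Mcm10) had reads, at most 9 in a library, and none could be tested. Of 9 genes of the miRNA pathway, 8 had a read (Tarbp2 was at 0), again at most 9 in a library and none tested.

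Dicer/Dnmt1 KO against WT compares libraries lacking both Dicer and Dnmt1 with WT. All 5 features fell: 5 of 5 passed the test lower, where 19% of the 683 tested features and 60.9% of the 133 tested miRNAs passed lower (limma, Benjamini-Hochberg adjusted p under 0.05). On the log2(RPM + 10) scale Mir92b fell by 6.84 (SE 0.73, limma adjusted p = 7.61e-06) and Mir25 fell by 5.55 (SE 0.51, adjusted p = 2.2e-06). Mir93 fell by 4.76 (SE 0.46, limma adjusted p = 3.07e-06), Mir106b fell by 4.20 (SE 0.50, adjusted p = 1.72e-05) and Mcm7 fell by 5.18 (SE 0.43, adjusted p = 8.15e-07). Their median change was -5.18, against -2.75 for all tested miRNAs and -0.09 for all tested features. That median is the value of Mcm7, whose reads are those of the cluster's miRNAs counted again. The added 10 RPM limits how far features of low WT level can fall, and these medians were not matched for level. In every one of 25 alternative fits all 5 remained called. In simulated libraries of the same depths, features lowered by 4 came out at -3.70 on average in this comparison and unchanged features at -0.23. Those libraries also held features raised by 2 and by 4. How the fit behaves under a mostly downward shift, as for the miRNAs here, was not tested. The simulated libraries were also drawn independently, without any likeness between A and B. Without the E14 2 pair the changes were -5.99 for Mir92b, -4.92 for Mir25, -4.16 for Mir93, -4.36 for Mir106b and -4.55 for Mcm7.

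Because the fitted values depend on scaling factors (0.419 to 1.96) and on the 10 RPM added before the log, the reads of each group were also summed without either. Summed RPM was 26.4-fold lower in Dicer/Dnmt1 KO than in WT for Mir25 (65 against 5299 reads; exact 95% counting interval 20.7 to 34.3). It was 31.8-fold lower for Mir93 (10 against 982 reads; 17.2 to 66.6) and 17.8-fold lower for Mir106b (4 against 220 reads; 6.87 to 66.0). For Mir92b it was 57.0-fold lower (13 against 2285 reads; 33.3 to 107). These ratios depended on library 2B of Dicer/Dnmt1 KO, which holds most of that group's library reads: without it they were 14.9-fold for Mir25 (11.1 to 20.5), 17.8-fold for Mir93 (8.59 to 44.3), 9.29-fold for Mir106b (3.14 to 45.4) and 36.2-fold for Mir92b (18.3 to 83.9). Without library 2A, Mir25 was 39.9-fold lower (28.3 to 58.4), and Mir106b kept 1 read, a ratio of 53.1-fold (9.42 to 2105). No order among the members is read from these ratios. With no scaling factors the fitted changes were smaller, from -6.27 for Mir92b to -3.84 for Mir106b, while the median of all tested features moved to 0.61.

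**Figure D3:**
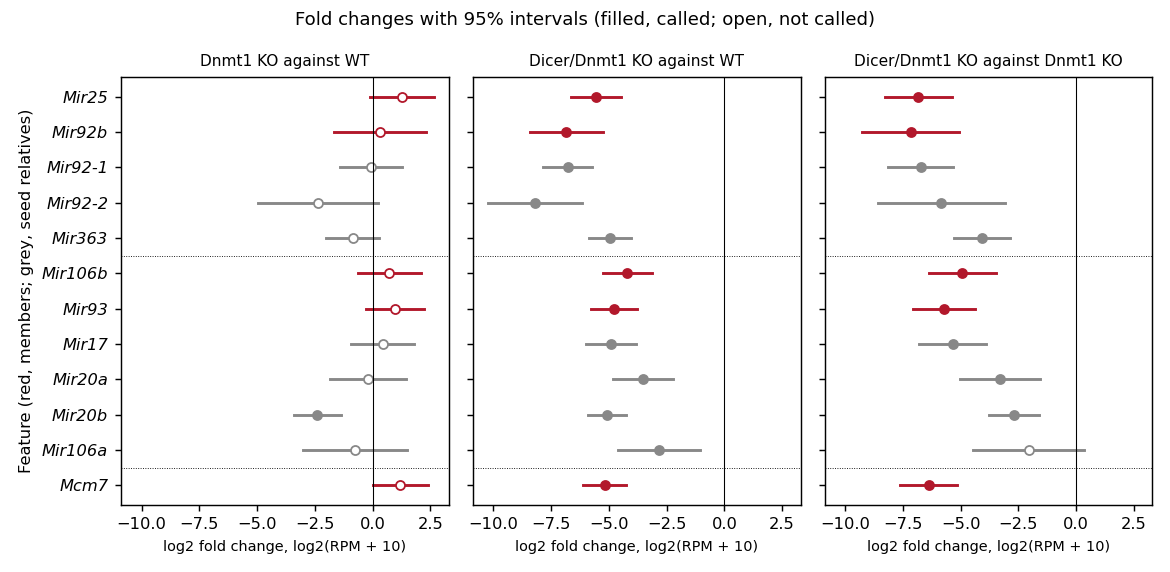
Fitted log2 fold changes of the members (red) and of their tested seed relatives (grey) in the 3 comparisons, on the log2(RPM + 10) scale, with 95% intervals from limma; filled points passed the adjusted p threshold of 0.05 and open points did not. All 5 members lie left of 0 in both comparisons of Dicer/Dnmt1 KO and right of 0, uncalled, in Dnmt1 KO against WT. Mir20b, Mir106a and Mir363 had 0 reads in Dicer/Dnmt1 KO, so their fitted values there depend on the RPM added before the log.

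Dicer/Dnmt1 KO against Dnmt1 KO compares libraries lacking both genes with libraries lacking Dnmt1 alone, with 1 pair of libraries as the reference. Again 5 of 5 features were called lower, where 21.7% of all tested features and 74.4% of tested miRNAs were. Mir92b fell by 7.16 (SE 0.98, limma adjusted p = 7.96e-05), Mir25 fell by 6.82 (SE 0.68, adjusted p = 8.05e-06) and Mcm7 fell by 6.39 (SE 0.58, adjusted p = 4.77e-06). Mir93 fell by 5.72 (SE 0.62, limma adjusted p = 1.63e-05) and Mir106b fell by 4.93 (SE 0.67, adjusted p = 7.85e-05). Summed RPM was 56.9-fold lower for Mir25 (exact counting interval 44.5 to 73.9), 83.1-fold lower for Mir92b (48.3 to 157), 48.0-fold lower for Mir93 (25.8 to 101) and 22.2-fold lower for Mir106b (8.26 to 84.1). Without Dicer/Dnmt1 KO 2B they were 32.1-fold, 52.8-fold, 26.8-fold and 11.6-fold, in the same order. Without 2A Mir25 was 85.9-fold and Mir106b 66.1-fold lower (1 read; 11.4 to 2652), and without Dnmt1 KO B Mir92b was 53.7-fold lower. This comparison shares its Dicer/Dnmt1 KO libraries with the one against WT. The line and the day of collection cannot be told apart from the loss of Dicer here either.

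Dnmt1 KO against WT asks what changes when DNA methylation maintenance alone is lost. None of the 5 features was called, where 6.88% of all tested features were called (6.59% higher and 0.293% lower) and 21.1% of tested miRNAs were called higher. The fitted changes were all above 0. For Mir25 the change was 1.28 (95% interval -0.11 to 2.66, limma adjusted p = 0.321) and for Mcm7 1.21 (0.03 to 2.38, adjusted p = 0.259), the interval being that of a single feature before adjustment. For Mir93 it was 0.96 (-0.30 to 2.22, limma adjusted p = 0.428), for Mir106b 0.73 (-0.63 to 2.08, adjusted p = 0.604) and for Mir92b 0.32 (-1.67 to 2.30, adjusted p = 0.898). The median of the tested miRNAs was 1.40 and that of all tested features 0.13, so the members' median of 0.96 lay between them. These intervals are wide, since the Dnmt1 KO group has 2 libraries.

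The E14 2 pair decided 1 of these calls. Without it Mcm7 was called higher in Dnmt1 KO, by 1.50 (limma adjusted p = 0.0204), and 181 features rather than 47 were called. Mir25 was then at 1.58 (limma adjusted p = 0.0528), Mir93 at 1.27 (adjusted p = 0.0638), Mir92b at 0.96 (adjusted p = 0.372) and Mir106b at 0.46 (adjusted p = 0.623). Since 3024 of the 3025 Mcm7 reads of Dnmt1 KO lay in the miRNAs, that call concerns the summed cluster. Summed RPM was 2.15-fold higher in Dnmt1 KO than in WT for Mir25 (exact counting interval 2.05 to 2.26) and 1.51-fold higher for Mir93 (1.33 to 1.71), intervals that cover counting error only and not the spread between libraries. For Mir106b the ratio was 1.25 (0.926 to 1.66) and for Mir92b 1.46 (1.34 to 1.58), although the mean RPM of Mir92b over libraries was 4086 in WT and 4083 in Dnmt1 KO. Without Dnmt1 KO B the ratio for Mir92b was 0.942 (0.808 to 1.09).

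Shares within a library need no scaling factor. Of the reads of the 3 cluster miRNAs, Mir25 took 82.7% ± 2.87 in the 6 WT libraries (SD; 79.9% to 87.8%). It took 86.5% ± 0.877 in the 2 Dnmt1 KO libraries and 75.1% ± 16.8 in the 4 Dicer/Dnmt1 KO libraries. Mir93 took 13.8% ± 2.97, 11.4% ± 0.763 and 22.0% ± 18.8, and Mir106b took 3.50% ± 2.04, 2.11% ± 0.114 and 2.92% ± 3.63 in WT, Dnmt1 KO and Dicer/Dnmt1 KO. In Dicer/Dnmt1 KO the spread came from library 1B, which had 2 cluster reads in all, 1 of Mir25 and 1 of Mir93. In its other 3 libraries Mir25 took 82.5% to 84.6%, inside the WT range. None of the 9 comparisons of these shares passed the exact permutation test, with p from 0.54 to 0.77 for Dicer/Dnmt1 KO against WT and from 0.214 to 0.429 for Dnmt1 KO against WT. Against Dnmt1 KO, the Mir25 share of Dicer/Dnmt1 KO did not overlap (p = 0.133, the smallest that 4 against 2 allow in the exact test), and p was 0.533 for Mir93 and 1 for Mir106b. A shift among the 3 miRNAs of the cluster was thus not detectable with 2 to 40 cluster reads a library in Dicer/Dnmt1 KO.

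As shares of all miRNA counts the members had lower means in Dicer/Dnmt1 KO as well. Mir25 made up 1.69% ± 0.409 of the miRNA counts of the 6 WT libraries (SD). Its share was 2.31% ± 0.253 in the 2 Dnmt1 KO libraries and 0.310% ± 0.161 in the 4 Dicer/Dnmt1 KO libraries. The Dicer/Dnmt1 KO libraries lay below all WT libraries (exact permutation p = 0.00952, the smallest that 4 against 6 allow; 0.0762 after adjustment over 24 shares and comparisons). Mir92b made up 0.871% ± 0.271, 0.642% ± 0.298 and 0.0517% ± 0.0392, also with no overlap between Dicer/Dnmt1 KO and WT and with the same exact permutation p and adjusted value. Mir93 made up 0.292% ± 0.121, 0.303% ± 0.00994 and 0.0823% ± 0.0622 (exact permutation p = 0.019 for Dicer/Dnmt1 KO against WT, adjusted 0.114). For Mir106b the shares were 0.0739% ± 0.0409, 0.0560% ± 0.00257 and 0.0139% ± 0.0220 (p = 0.0286, adjusted 0.137, same exact test). For both Mir93 and Mir106b the 2 groups overlapped, and none of the shares passed after adjustment over the 24 tests. How many other miRNAs separate as Mir25 and Mir92b did was not counted. With Dnmt1 KO A or B left out, which leaves these values and their raw p as they are but fewer tests in the family, all 5 shares passed (adjusted exact permutation p from 0.0254 for Mir25, Mir92b and Mcm7 to 0.0457 for Mir106b). With A and B summed none passed (adjusted exact permutation p = 0.32 for each of the 5), where 2 pairs against 3 allow no small p. Without the E14 2 pair none passed either (0.137 for each, same test).

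The miRNAs with the same seeds gave the wider setting. Mir17, Mir20a, Mir20b and Mir106a, which share the seed of Mir106b and Mir93, were called lower in Dicer/Dnmt1 KO against WT in 4 of 4 cases, and Mir92-1, Mir92-2 and Mir363, which share the seed of Mir25 and Mir92b, in 3 of 3. In that comparison 19% of all tested features and 60.9% of tested miRNAs were called lower. Mir106a was not called with the pair as a random block (limma adjusted p = 0.0918), with a pseudocount of 50 (0.0523) or without Dicer/Dnmt1 KO 2A (0.0505), and in several other fits it did not pass the filter. Mir32 and Mir367, with at most 12 and 13 reads in a library, could not be tested. Mir17 fell by 4.90 (SE 0.50, limma adjusted p = 4.96e-06), Mir20a fell by 3.52 (SE 0.60, adjusted p = 0.000415) and Mir92-1 fell by 6.78 (SE 0.49, adjusted p = 4.1e-07). Mir92-2 fell by 8.20 (SE 0.95, limma adjusted p = 1.41e-05), with the split between it and Mir92-1 uncertain for the reason given above. Mir20b, Mir106a and Mir363 had 0 reads in all 4 Dicer/Dnmt1 KO libraries, against 221, 96 and 228 reads over the 6 WT libraries.

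In Dnmt1 KO against WT, 6.88% of all tested features were called (6.59% higher and 0.293% lower), and 1 of the 7 tested relatives. That was Mir20b, of the Mir106a-363 cluster on the X chromosome, which fell by 2.38 (SE 0.48, limma adjusted p = 0.00638). It rested on 2 and 6 reads in Dnmt1 KO, and the call was lost with A and B summed (limma adjusted p = 0.271), with a pseudocount of 1 (0.0748), with no filter (0.448), and without Dnmt1 KO A (0.412), Dnmt1 KO B (0.0886) or WT 3A (0.0503). Its fitted value was below 0 where those of all 5 members were above 0. Other relatives were also below 0 without being called: Mir92-2 (-2.37), Mir363 (-0.86), Mir106a (-0.77), Mir20a (-0.21) and Mir92-1 (-0.05). Mir17 was at 0.44, also uncalled. The split between Mir92-1 and Mir92-2 is uncertain here too. Differences between the relatives and the members were not tested. Of the paralogous Mir17-92 cluster, 5 of 6 miRNAs were tested: 5 fell in Dicer/Dnmt1 KO against WT (median -4.80) and none was called in Dnmt1 KO against WT (median -0.05). Of the Mir106a-363 cluster, 5 of 6 were tested: 5 fell in Dicer/Dnmt1 KO against WT (median -4.95, or -4.58 with the 3 miRNAs that had no reads placed at 3 reads over the group; Mir106a with the losses just given) and 1, Mir20b, with its own losses above, fell in Dnmt1 KO against WT (median -1.16). The medians of all tested miRNAs in these 2 comparisons were -2.75 and 1.40. In the first, 60.9% of tested miRNAs and 19% of all tested features were called lower. Of all tested features, 0.293% were called lower in the second.

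**Figure D4:**
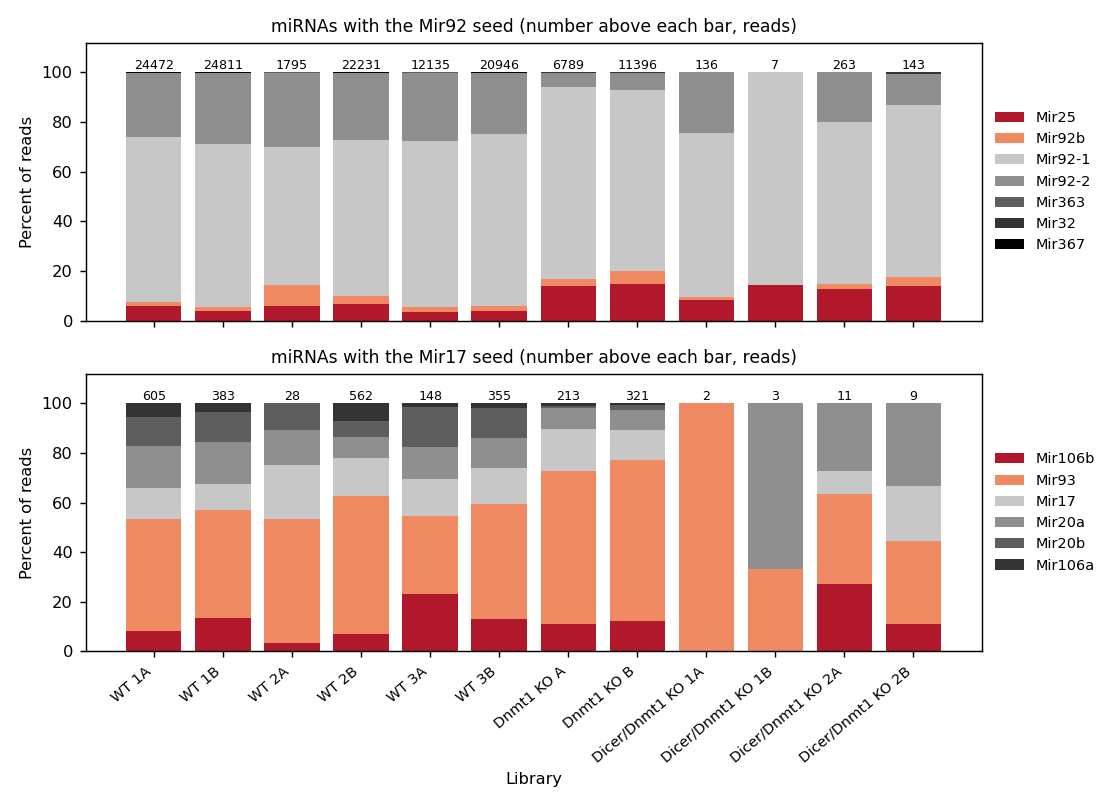
Share of each miRNA gene, in percent, among the hairpin reads (both arms) of the 7 genes of the Mir92 seed group (top) and the 6 genes of the Mir17 seed group (bottom), by library; members are in red and orange, relatives in grey, and the numbers above the bars are the reads behind them. Mir25 takes 3.56% to 6.75% of its seed group in WT libraries, 13.9% and 14.7% with Dnmt1 deleted and 8.09% to 14.3% with Dicer deleted too, the last from 7 to 263 reads a library.

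Within a seed group, Mir25 and Mir93 had larger mean shares in Dnmt1 KO than in WT, though no difference passed after adjustment. These shares were added after the data had been seen. They are of hairpin reads, both arms together, of the genes listed above for each seed; RefSeq gives the Mir17 seed also to miR-6383, which is not among the genes counted. Of the hairpin reads of the Mir92 seed group, Mir25 took 5.03% ± 1.35 in the 6 WT libraries (SD; 3.56% to 6.75%). It took 14.3% ± 0.590 in the 2 Dnmt1 KO libraries and 12.2% ± 2.86 in the 4 Dicer/Dnmt1 KO libraries (8.09% to 14.3%). Neither knockout group overlapped WT, although library 1B of Dicer/Dnmt1 KO rested on 7 reads. Of the relatives, Mir92-1 and Mir92-2 did not overlap between Dnmt1 KO and WT either, while Mir363, Mir32 and Mir367 did. Such separations were not counted over other features. The exact permutation test gave p = 0.00952 for Dicer/Dnmt1 KO against WT and 0.0714 for Dnmt1 KO against WT, each the smallest that its design allows, and 0.114 and 0.286 after adjustment over 12 shares and comparisons (0.0381 for the first with a Dnmt1 KO library left out, from fewer tests). With A and B summed the first difference was 5.57 percentage points (adjusted exact permutation p = 0.8). Without the E14 2 pair it was 7.88 (adjusted p = 0.343, same test). Mir92b took 3.08% ± 2.63, 3.93% ± 1.58 and 1.81% ± 1.47, with all 3 groups overlapping. Mir92-1 and Mir92-2, which give the same mature strand, took most of the rest, 64.5% ± 4.75 and 27.2% ± 1.85 in WT, 75.2% ± 3.00 and 6.37% ± 0.844 in Dnmt1 KO.

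Of the hairpin reads of the Mir17 seed group, Mir93 took 45.5% ± 8.02 in WT (31.8% to 55.9%, SD, n = 6) and 63.3% ± 2.55 in Dnmt1 KO (61.5% and 65.1%, SD, n = 2), where the groups did not overlap (exact permutation p = 0.0714, the smallest possible; 0.286 adjusted over the same 12). Mir106b took 11.3% ± 6.81 and 11.7% ± 0.624, with overlapping groups. Separations like that of Mir93 were not counted over other features. Together Mir93 and Mir106b made up 53.6% to 62.8% of this seed group in the WT libraries and 72.8% and 77.3% in Dnmt1 KO. These shares depend on the relatives too. In WT and Dnmt1 KO the mean shares were 11.4% and 1.40% for Mir20b and 13.6% and 8.28% for Mir20a. They were 3.26% and 0.781% for Mir106a and 14.8% and 14.5% for Mir17. Of all miRNA counts, Mir93 took 0.292% in WT and 0.303% in Dnmt1 KO. In Dicer/Dnmt1 KO the whole seed group had 2, 3, 11 and 9 reads a library, too few for a share. In reads, the members' seed relatives outnumbered Mir25 and Mir92b by far but not Mir93 and Mir106b: WT held 106390 hairpin reads of the Mir92 seed group, of which 7584 were the members', and 2081 of the Mir17 seed group, of which 1202 were the members'.

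Over the 12 libraries the members' profiles on the log2(RPM + 10) scale followed each other, with Pearson's r of 0.970 between Mir25 and Mir93, 0.945 between Mir25 and Mir106b, 0.914 between Mir93 and Mir106b and 0.982 between Mir25 and Mir92b. These correlations are descriptions: the 12 points share the 3 genotypes, the pairs and the depth of each library. Of 678 other tested features, the 5 most like the mean of Mir106b, Mir93 and Mir25 were Mir200a (r = 0.989), Mir181d (0.987), Mir130a (0.984), Mir96 (0.983) and Ttll10 (0.982), and the 5 most like Mir92b were Mir30e (0.984), Mir130b (0.976), 2610318N02Rik (0.975), Mir92-1 (0.975) and Mir17hg (0.975). In the annotation Ttll10 holds Mir200a, Mir200b and Mir429, and Mir17hg holds the Mir17-92 cluster, so these 2 counts include those of the miRNAs inside them.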

How the data were processed

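Small RNA libraries of 12 mouse ESC samples were sequenced by the study with an Illumina small RNA kit, trimmed with Trim Galore 0.3.5 and mapped with Bowtie2 2.2.6 to NCBIM37, per the submitters' processing notes, and reads of 20 to 24 nt were quantified per gene in SeqMonk. The deposited values are log2 RPM made by the authors, with 1 column per library; 89 value columns of no sample here were not used. How reads with several matches were placed is not given in the sources used here.

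A count of 0 had been written as 0.9 reads, which fixed the value of 1 read in each column, and all values came out within 0.02 of a whole read; a count model was not used because the deposited unit is log2. Library totals follow from the same step. Features with at least 111.3 RPM (10 reads at the median depth) in 2 libraries and 15 reads in total were kept, 683 of 32101. limma 3.58.1 (R 4.3.3, eBayes with a trend) was fitted to log2(RPM + 10) of all 12 libraries and 3 genotypes after TMM scaling computed on the kept features, with Benjamini-Hochberg adjustment at 0.05. The fit was tested on simulated data for Dicer/Dnmt1 KO against WT (20 simulations, on average 676 features fitted): 98.0% of features lowered by 4 on the log2 scale and 84.7% of those lowered by 2 were called, 2.06% of unchanged features were called, and the medians came out on average at -3.70 for a true -4, -2.25 for a true -2 and -0.23 for unchanged features. Features raised by 2 and by 4 were present as well, and a mostly downward shift was not tested. Each simulated library was drawn independently, with the same relative spread for all features. The likeness within A and B pairs (consensus correlation 0.302) was not simulated, so the share of false calls does not cover it. Shares were compared with two-sided exact permutation tests (SciPy 1.17.1), Benjamini-Hochberg adjusted. Intervals are 95%; those of summed reads cover counting error only, and those of fitted changes come from limma and the spread between libraries. A and B libraries differed by 9.08 to 24.7 times the sampling noise (chi-square per degree of freedom) and were kept as separate samples.

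The named features are the 5 members, their seed relatives, the 2 paralogous clusters, the MCM and miRNA pathway genes, features within 20 kb, and the 5 features most like the cluster and most like Mir92b. Members and lists were chosen with earlier results of these data known. Alternatives were other scalings, pseudocounts, filters, voom weights, summed or blocked pairs, left-out libraries and the E14 2 pair left out. All 13 miRNA genes looked up had their RefSeq sequence.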

Additional observations from a re-analysis of the deposited data

Results flagged for a closer look

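Among 28 groups of 4 or 6 values examined, 6 held 1 library set apart from the rest by Dixon's test; chance alone marks about 1 in 20 groups. In library 2B of the WT pair titled E14 2, Mir25 was at 10699 RPM (the other 5 WT libraries at 5830 to 6723 RPM), Mir93 at 2240 RPM (others 651 to 1152 RPM) and Mcm7, whose reads are those of the miRNAs, at 13252 RPM (others 7123 to 8233 RPM). These 3 values are not independent of each other. In library 2A of Dicer/Dnmt1 KO, Mir106b was at 47.3 RPM, which is 3 reads, where the other 3 libraries held 0 to 6.64 RPM. In library 1B of Dicer/Dnmt1 KO, the shallowest of all, Mir25 and Mir93 each took 50% of the cluster's reads, 1 read each, where the other 3 libraries gave Mir25 82.5% to 84.6% and Mir93 10.0% to 15.4%.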

How the results depend on the processing

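In both comparisons of Dicer/Dnmt1 KO, all 5 features kept their direction and stayed called in each of 25 (against WT) and 23 (against Dnmt1 KO) alternatives, with the largest limma adjusted p at 0.00709 and 0.0113. Against WT the changes ranged from -5.75 to -4.73 for Mir25, -5.13 to -3.94 for Mir93, -6.19 to -2.54 for Mir106b and -7.86 to -5.69 for Mir92b; Mir106b, with 4 reads in Dicer/Dnmt1 KO, moved the most. The titles' labels did not pair WT with Dicer/Dnmt1 KO (correlations of same-labelled libraries -0.23, 0.11, -0.17 and -0.28); with the label as a replicate block 125 features were called against 134 without it on the same 8 libraries, and Mir106b was at -4.04 (limma adjusted p = 0.00709). With library reads alone 42% of the calls in Dicer/Dnmt1 KO against WT were higher, against 21.2%.

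The count for Dnmt1 KO against WT (47) was the least stable: 17 with A and B summed, 30 with the pair as a random block, 31 with a pseudocount of 1, 80 with voom weights, 181 without the E14 2 pair, and 16 to 84 with 1 library left out (16 and 19 without Dnmt1 KO B and A, 84 without WT 2A). Mcm7 was called there without the E14 2 pair only, of 23 alternatives (1.50, limma adjusted p = 0.0204). With 1 library left out Mir92b ranged from -0.025 (without Dnmt1 KO B) to 1.00.

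Among the shares, none of them called in the full set of tests, these changed sign with 1 library left out (differences in percentage points). For Dicer/Dnmt1 KO minus WT, cluster shares ranged from -10.8 to 0.769 for Mir25, -1.16 to 12.2 for Mir93 and -2.11 to 0.394 for Mir106b, and seed shares from -11.2 to 11.0 for Mir93 and -7.61 to 1.49 for Mir106b. For Dicer/Dnmt1 KO minus Dnmt1 KO, Mir106b ranged from -0.716 to 1.78 (cluster) and -8.00 to 1.09 (seed). For Dnmt1 KO minus WT, the seed shares ranged from -1.15 to 2.73 for Mir106b and -0.267 to 1.97 for Mir92b, and the Mir93 share of miRNA counts from -0.0227 to 0.0408. Without the E14 2 pair the seed share turned to -2.63 for Mir106b (Dnmt1 KO minus WT) and to 0.0864 for Mir92b (Dicer/Dnmt1 KO minus WT). The cause was not tested. Depth limits Mir106b and Mir93 most, with 0 to 4 reads a library in Dicer/Dnmt1 KO.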
